A study of Homo sapiens with 12 samples.

Results

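Cells build cholesterol and fatty acids from the same precursor, cytosolic acetyl-CoA. The sterol branch passes through mevalonate, the isoprenoid diphosphates and squalene to lanosterol, whose side groups and double bonds are then trimmed to give cholesterol; the fatty acid branch makes palmitate, which is then elongated and desaturated. Both branches are under sterol regulatory element-binding proteins (SREBPs), transcription factors encoded by SREBF1 and SREBF2 that are held in the endoplasmic reticulum by INSIG proteins when sterols are plentiful. The genes described here are 29 members of these pathways, named by symbol, out of 23613 gene symbols in the tables. The list was drawn up with earlier results of these data known. They comprise 18 genes of sterol synthesis, 4 of regulation and sterol transport (INSIG1, SREBF1, SREBF2 and STARD4) and 7 of fatty acid synthesis. All 29 reached the filter of at least 1 FPKM (sequenced fragments per kilobase of transcript length, relative to all mapped fragments) in at least 3 libraries, and so stand among the 14428 genes tested. SC5D is listed in the tables under its older symbol SC5DL.

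The study compared naive with primed human pluripotent cells of the established embryonic stem cell lines RUES2 and H9 by sequencing of poly(A) RNA, with 3 libraries in each of 4 groups (12 in all), described as biological replicates without stating how the cultures were kept apart, so that p-values reflect only how far these libraries spread. Naive RUES2 (passages 24 to 26) and naive H9 (passages 27 to 31) were grown in a medium with 5 mM glucose, 18 µg/mL insulin, 5 mg/mL bovine serum albumin, 20 ng/mL LIF, 1 µM PD0325901 (a MEK inhibitor) and 3 µM CHIR99021 (a GSK3 inhibitor). Primed RUES2 (passages 30 to 33) and primed H9 (passages 31 to 35) were grown in medium with 20% knockout serum replacement and 4 ng/mL bFGF on mouse embryonic fibroblasts arrested with mitomycin C. The labels of the naive groups list neither bFGF nor serum replacement and name no feeder cells. Colonies were picked by hand. The title of the series speaks of brief mTor inhibition, whereas no mTOR inhibitor is named in the labels. State, medium, supplements, named feeder cells and passage changed together and cannot be told apart in these data. In bulk RNA, fewer cells of a type and less RNA per cell cannot be told apart either.

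The tables hold no read counts. Depth relative to the mean library, read from the authors' confidence bounds, ran from 0.671 to 1.49, and 12681 to 13592 genes per library reached 1 FPKM. All 11 listed markers of pluripotent cells reached 1 FPKM in every group. In a check of line identity, 3 of the 12 libraries, 0 among those labelled H9, went against the rest of the libraries with the same line label. The RUES2 comparisons are therefore between libraries as labelled and could not be repeated without those libraries. In the RUES2 state comparison a difference of line cannot be told apart from one of state. The H9 state comparison contains none of those libraries. Primed H9 replicate 2 stood apart from the other primed H9 libraries in most of the genes described here. Calls and counts that rest on it are given with and without it. It also differed from them in genes outside these pathways: LEFTY1, an antagonist of NODAL signalling, measured 7.31 FPKM there, against 419.7 and 501 FPKM in primed H9 replicates 1 and 3. The transcription factor gene HAND1 measured 4.82 FPKM there, against 0.0460 and 0.0362 FPKM. These 2 genes were chosen after their values were seen.

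The sequences just upstream of 5 members that the results turn on are shown first: NSDHL and EBP rose in H9, PMVK was the member whose state difference differed between lines, and INSIG1 and SREBF2 act in the control of both pathways. They are the 250 bases before the gene start from RefSeq (GRCh38.p14; a build other than the hg19 of the tables), 5′ to 3′ on the strand of the gene. NSDHL lies at chrX:152830813-152831062 (plus strand), EBP at chrX:48521558-48521807 (plus), PMVK at chr1:154936720-154936969 (minus), INSIG1 at chr7:155297628-155297877 (plus) and SREBF2 at chr22:41832855-41833104 (plus). Capitals mark matches, on either strand, of the NF-Y box CCAAT, the E-box CACGTG and the sterol regulatory element core TCACNCCAC (a CCAAT on the other strand reads ATTGG).
NSDHL: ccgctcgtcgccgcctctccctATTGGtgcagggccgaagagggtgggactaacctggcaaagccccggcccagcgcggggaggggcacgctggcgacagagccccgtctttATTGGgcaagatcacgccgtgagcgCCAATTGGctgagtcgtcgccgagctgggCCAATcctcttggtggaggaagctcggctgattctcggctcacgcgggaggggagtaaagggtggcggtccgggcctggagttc
EBP: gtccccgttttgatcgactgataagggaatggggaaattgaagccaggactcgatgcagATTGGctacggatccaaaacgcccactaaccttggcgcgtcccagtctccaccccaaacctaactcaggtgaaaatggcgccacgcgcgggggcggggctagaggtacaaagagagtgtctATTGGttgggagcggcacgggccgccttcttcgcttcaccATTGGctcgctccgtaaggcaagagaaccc
PMVK: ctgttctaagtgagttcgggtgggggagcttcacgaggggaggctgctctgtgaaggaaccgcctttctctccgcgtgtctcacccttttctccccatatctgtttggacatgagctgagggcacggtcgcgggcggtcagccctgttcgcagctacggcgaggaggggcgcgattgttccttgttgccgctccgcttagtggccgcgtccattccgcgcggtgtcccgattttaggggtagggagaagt
INSIG1: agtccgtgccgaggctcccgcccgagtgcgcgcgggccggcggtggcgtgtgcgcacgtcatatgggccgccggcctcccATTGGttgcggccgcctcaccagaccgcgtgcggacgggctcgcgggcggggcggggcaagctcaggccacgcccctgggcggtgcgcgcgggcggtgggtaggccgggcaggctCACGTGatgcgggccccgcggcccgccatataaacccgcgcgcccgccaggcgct
SREBF2: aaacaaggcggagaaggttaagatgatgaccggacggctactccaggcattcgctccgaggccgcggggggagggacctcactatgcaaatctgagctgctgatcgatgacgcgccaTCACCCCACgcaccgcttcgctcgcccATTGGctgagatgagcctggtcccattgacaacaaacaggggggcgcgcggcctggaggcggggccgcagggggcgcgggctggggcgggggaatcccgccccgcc

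NSDHL held 5 CCAAT matches, 2 of which overlap each other on opposite strands, EBP held 3, and INSIG1 and SREBF2 held 1 each; PMVK held 0. Of the 29 members 25 had such a window in the RefSeq table, and a member with several windows was counted by any of them. CCAAT was found in 13 of 15 sterol genes (86.7%), 3 of 4 regulator and transport genes and 3 of 6 fatty acid genes, beside 37.0% of all genes with a window (27305) and 40.2% of the protein-coding ones (15843). The sterol genes with a window but no match were PMVK and CYP51A1. The GC-box GGGCGG was found in 24 of 25 members, NSDHL being the exception, beside 62.1% of protein-coding genes. CACGTG was found in 2 members (INSIG1 and SC5D) and TCACNCCAC in 1 (SREBF2), beside 9.73% and 1.19% of protein-coding genes. These are letter matches in the 250 bases before each start, not measured binding. Only these exact patterns were searched, so variant forms and elements elsewhere were not counted. A gene without a match is thus not shown to lack such an element.

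Differences between states are given as the difference of mean log2(FPKM + 1), naive minus primed, with its standard error (SE). This scale understates the change of genes of low level. Adjusted p-values are from limma with Benjamini-Hochberg adjustment over all 14428 genes tested, two-sided, from 1 model of all 12 libraries, and a gene passed at an adjusted p under 0.05. All groups have n = 3 libraries.

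In RUES2, sterol synthesis genes rose in the naive libraries at steps from mevalonate to the removal of lanosterol's methyl groups. Of the 18, 8 rose and 0 fell, beside 23.1% and 23.6% of all genes tested. The genes that rose were MVK, PMVK and MVD of the mevalonate steps, FDPS of the isoprenoid steps, SQLE of the squalene steps, and CYP51A1, MSMO1 and NSDHL of the steps that trim lanosterol. At an unadjusted p under 0.05 limma had 13 higher and 0 lower. The share of all genes tested at that unadjusted threshold was not counted, here or for the unadjusted counts below. The median difference over the 18 was 0.82 (log2), beside 0.012 over all genes tested. In 16 of the 18 all 3 naive libraries lay above all 3 primed ones, as they did in 29% of all genes tested, and the exceptions were TM7SF2, a sterol reductase, and SC5DL, a sterol desaturase.

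NSDHL, a dehydrogenase that helps remove methyl groups from lanosterol's derivatives (chromosome X, 151999511 to 152037907 of hg19), measured 51.4, 47.2 and 52.8 FPKM in naive RUES2, against 16.1, 19.0 and 27.6 FPKM in primed RUES2. The groups did not overlap, and primed replicate 3 was the highest of its group. The difference of 1.27 (SE 0.28, adjusted p = 0.00388) was the largest among the 29 members in this line. MSMO1, the oxidase that acts on the same methyl groups (chromosome 4, 166248818 to 166264314 of hg19), measured 78.6, 67.8 and 77.1 FPKM in naive RUES2, against 30.9, 40.5 and 43.3 FPKM in primed RUES2 (0.95, SE 0.20, adjusted p = 0.00297). Its groups did not overlap. PMVK, phosphomevalonate kinase (chromosome 1, 154897208 to 154909484 of hg19), measured 25.3, 32.4 and 24.6 FPKM in naive RUES2, against 19.6, 19.7 and 20.1 FPKM in primed RUES2. The primed values of PMVK were nearly equal, with a highest to lowest ratio of 1.02 against 1.26 or more in the other members, and the naive ones all lay above them (0.44, SE 0.094, adjusted p = 0.00331).

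The other 5 calls were nearer the threshold and less stable: of the 12 fits that left out 1 library, MVK, MVD and CYP51A1 did not pass in 9 each, FDPS in 8 and SQLE in 5, with adjusted p up to 0.150 (CYP51A1). All 5 were lost without any 1 naive RUES2 library or primed RUES2 replicate 1 or 2. MVK, MVD, FDPS and CYP51A1 were also lost without any 1 naive H9 library, and MVK, MVD and CYP51A1 without primed H9 replicate 1. MVK, mevalonate kinase, measured 11.3, 12.2 and 12.9 FPKM in naive RUES2, against 4.34, 7.13 and 7.42 FPKM in primed RUES2 (0.87, adjusted p = 0.0415). MVD, the decarboxylase that makes isopentenyl diphosphate, measured 50.5, 58.0 and 57.3 FPKM in naive RUES2, against 21.1, 18.3 and 38.8 FPKM in primed RUES2 (1.13, adjusted p = 0.0461). Both had no overlap, with primed replicate 3 well above primed replicate 1. FDPS, farnesyl diphosphate synthase, measured 179, 221 and 184 FPKM in naive RUES2, against 85.4, 99.7 and 142 FPKM in primed RUES2 (0.86, adjusted p = 0.0398). FDPS has 10 named pseudogenes, so its reads may be shared. SQLE, squalene epoxidase, measured 76.1, 72.8 and 78.5 FPKM in naive RUES2, against 35.2, 43.8 and 51.1 FPKM in primed RUES2 (0.81, adjusted p = 0.0310). CYP51A1, lanosterol demethylase with 3 named pseudogenes, measured 44.1, 45.7 and 45.6 FPKM in naive RUES2, against 20.2, 23.2 and 32.8 FPKM in primed RUES2 (0.83, adjusted p = 0.0486). In these 3 genes as well, every naive library was above every primed library.

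The 8 sterol genes whose groups did not overlap but which did not pass had differences of 0.45 (EBP, a sterol isomerase, adjusted p = 0.0749) to 1.01 (HMGCS1, the synthase of the HMG-CoA step, adjusted p = 0.126). HMGCS1 measured 88.3, 80.3 and 94.8 FPKM in naive RUES2, against 28.9, 42.3 and 64.3 FPKM in primed RUES2. The SE of its difference was 0.51, beside 0.094 for PMVK, since 1 estimate of spread per gene is shared by all 4 groups and the primed H9 values of HMGCS1 ranged from 22.8 to 137 FPKM. LSS, lanosterol synthase, measured 41.3, 44.6 and 44.8 FPKM in naive RUES2, against 14.9, 22.1 and 28.5 FPKM in primed RUES2, with an adjusted p of 0.0639.

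The remaining sterol genes showed smaller or less certain differences. ACAT2, which makes acetoacetyl-CoA and whose locus overlaps that of TCP1, averaged 119.9 ± 7.20 FPKM in naive RUES2 and 72.7 ± 20.6 FPKM in primed RUES2 (SD, n = 3 each; difference 0.75, adjusted p = 0.226). IDI1, the isomerase of isopentenyl diphosphate with 3 named pseudogenes, averaged 58.9 ± 4.23 FPKM in naive RUES2 and 32.2 ± 6.88 FPKM in primed RUES2 (0.87, adjusted p = 0.0655). FDFT1, squalene synthase, averaged 197 ± 7.73 FPKM in naive RUES2 and 137 ± 44.3 FPKM in primed RUES2 (0.56, adjusted p = 0.154). In all 3 genes the naive libraries lay above the primed ones. HSD17B7, a sterol keto reductase with 2 named pseudogenes, averaged 15.1 ± 2.44 FPKM in naive RUES2 and 9.72 ± 2.21 FPKM in primed RUES2 (0.60, adjusted p = 0.0776). DHCR7, the reductase of the last step to cholesterol, averaged 65.4 ± 3.74 FPKM in naive RUES2 and 38.0 ± 7.18 FPKM in primed RUES2 (0.78, adjusted p = 0.0635). These genes also had no overlap. TM7SF2 averaged 24.2 ± 0.947 FPKM in naive RUES2 and 21.2 ± 3.30 FPKM in primed RUES2 (0.19, adjusted p = 0.341). SC5DL averaged 14.1 ± 0.966 FPKM in naive RUES2 and 12.2 ± 1.46 FPKM in primed RUES2 (0.20, adjusted p = 0.329).

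The count of 8 changed with the libraries in the model. In a fit of the 6 RUES2 libraries alone it was 15, beside 21.4% of all genes tested. Without primed H9 replicate 2 it was 16 (background 24.7%), without primed H9 replicate 3 it was 13 (background 25.6%) and without primed H9 replicate 1 it was 5 (background 22.9%). Without naive H9 replicate 1, 2 or 3 it was 4 each time (background 21.5%, 21.9% and 22.1%). Without naive RUES2 replicate 1, 2 or 3 it was 3 each time (background 18.5%, 19.4% and 19.6%). Without primed RUES2 replicate 1 or 2 it was 3 (background 19% and 21.5%), and without primed RUES2 replicate 3 it was 8 (background 20.9%). NSDHL, MSMO1 and PMVK passed in each of the 12 fits that left out 1 library, and 0 sterol genes fell in any of them.

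**Figure D1:**
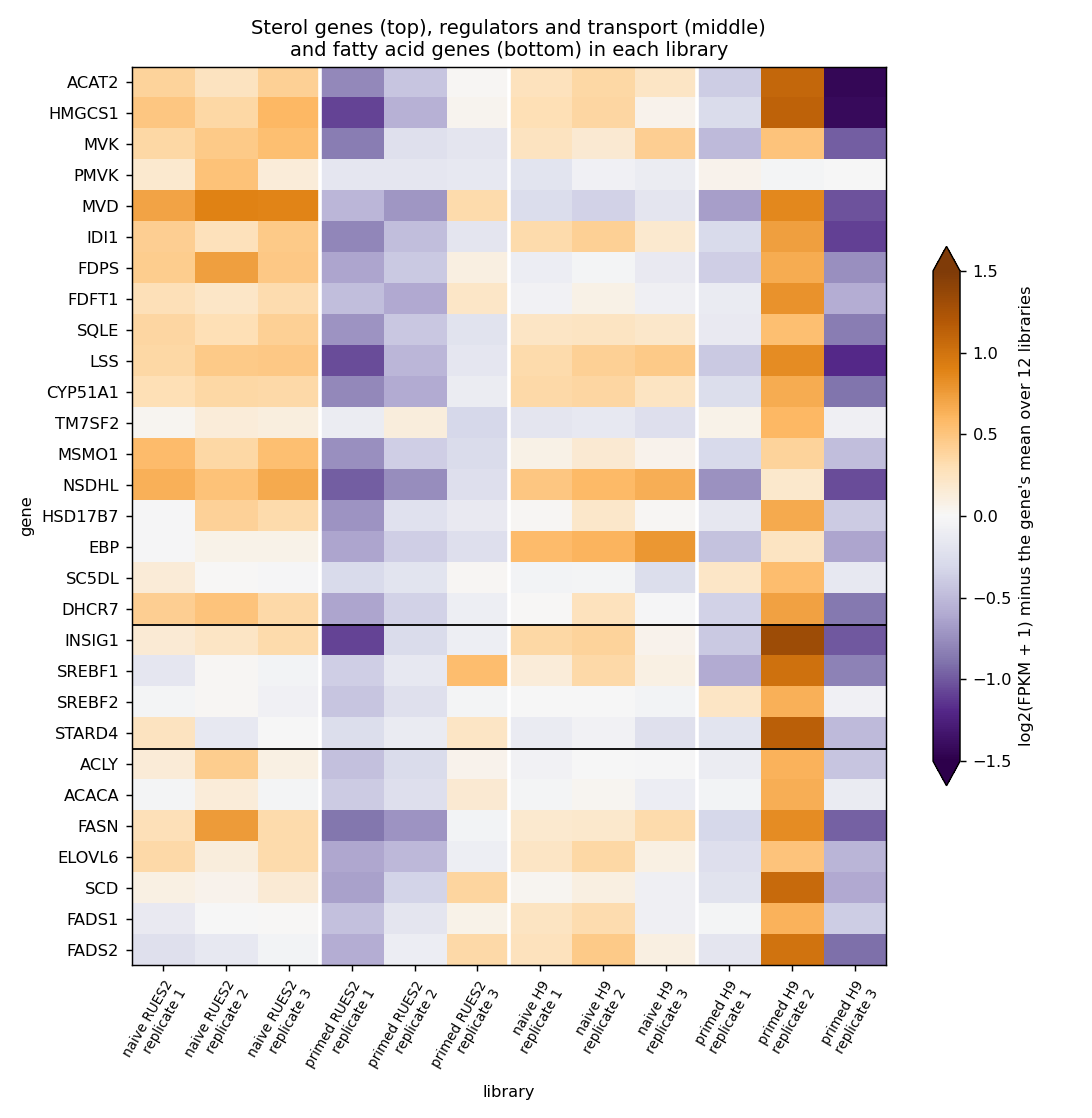
Each row is a gene and each column a library; the colour is log2(FPKM + 1) minus the gene's mean over the 12 libraries, from purple (below) to orange (above). Primed H9 replicate 2 is orange in nearly every row and primed H9 replicate 3 purple, naive RUES2 is orange in most sterol rows, and the PMVK row varies little in the primed libraries.

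In H9, 2 of the 18 sterol genes rose in naive libraries, NSDHL and EBP, and 0 fell, beside 20.4% higher and 23.9% lower of all genes tested. The count of sterol genes that rose in H9 thus did not exceed the background. At an unadjusted p under 0.05 limma had 2 higher and 1 lower (TM7SF2). NSDHL measured 46.3, 49.2 and 52.0 FPKM in naive H9, against 19.3, 37.6 and 15.3 FPKM in primed H9 (1.10, SE 0.28, adjusted p = 0.00889). EBP, the sterol isomerase (chromosome X, 48380164 to 48387104 of hg19), measured 96.2, 99.6 and 111 FPKM in naive H9, against 47.1, 76.4 and 41.6 FPKM in primed H9 (0.93, SE 0.19, adjusted p = 0.00283). In both genes primed replicate 2 was the highest primed library and still lay below every naive library. Both passed without any 1 of the 12 libraries, and without primed H9 replicate 2 their differences were 1.46 (adjusted p = 0.000300) and 1.19 (adjusted p = 6.30e-05). The median difference over the 18 was 0.31 (log2), beside -0.010 over all genes tested.

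In 14 of the 18 sterol genes the 2 states of H9 overlapped. All naive libraries lay above all primed ones in 2, NSDHL and EBP, which does not exceed the 27% of genes tested with that pattern. HMGCS1 measured 77.3, 81.2 and 64.8 FPKM in naive H9, against 51.4, 137 and 22.8 FPKM in primed H9, so that the naive libraries lay between primed replicate 2 and primed replicate 1 (0.43, 95% interval -0.69 to 1.56, adjusted p = 0.518). SQLE measured 69.4, 69.8 and 67.9 FPKM in naive H9, against 53.7, 86.0 and 32.5 FPKM in primed H9 (0.37, adjusted p = 0.291). The same position of the naive libraries, below primed replicate 2 and above the other primed libraries, was seen in both genes. PMVK and TM7SF2 lay lower in all naive than in all primed H9 libraries, as did 30.3% of genes tested, and neither passed. PMVK measured 19.3, 21.2 and 20.5 FPKM in naive H9, against 23.1, 21.9 and 22.1 FPKM in primed H9 (-0.13, adjusted p = 0.289). TM7SF2 measured 19.8, 20.4 and 19.1 FPKM in naive H9, against 23.8, 34.7 and 21.4 FPKM in primed H9 (-0.38, adjusted p = 0.0734). All 3 naive values of TM7SF2 lay just below the lowest primed one.

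The other genes that rose in RUES2 had wide primed ranges in H9. MSMO1 measured 55.3, 59.3 and 54.7 FPKM in naive H9, against 42.5, 69.3 and 37.6 FPKM in primed H9 (0.23, adjusted p = 0.378). MVK measured 10.3, 9.76 and 11.9 FPKM in naive H9, against 5.74, 12.6 and 3.86 FPKM in primed H9 (0.61, adjusted p = 0.141). CYP51A1 measured 45.5, 46.0 and 42.0 FPKM in naive H9, against 29.8, 56.7 and 18.7 FPKM in primed H9 (0.48, adjusted p = 0.238). In these genes the naive libraries lay above primed replicates 1 and 3 and below primed replicate 2. MVD measured 25.3, 23.9 and 26.9 FPKM in naive H9, against 19.0, 56.1 and 14.6 FPKM in primed H9 (0.014, adjusted p = 0.984), and the sign of this small difference turned with upper quartile scaling. FDPS measured 123, 130.2 and 120.1 FPKM in naive H9, against 102, 210.5 and 78.9 FPKM in primed H9 (0.060, adjusted p = 0.893). Here as well primed replicate 2 was above and primed replicate 3 below every naive library.

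Without primed H9 replicate 2, 11 of the 18 sterol genes were higher in naive H9 and 0 lower, beside 22.6% and 23.2% of all genes tested, and their median difference was 0.70. The 11 were ACAT2, HMGCS1, MVK, IDI1, SQLE, LSS, CYP51A1, MSMO1, NSDHL, EBP and DHCR7. LSS then differed by 1.20 (adjusted p = 0.00477) and DHCR7 by 0.68 (adjusted p = 0.0127). Primed H9 then rests on 2 libraries. Without primed H9 replicate 3 instead, 2 sterol genes were higher (NSDHL and EBP) and 2 lower (TM7SF2 and SC5DL), beside 17.2% and 22.1%, and the median difference was -0.084. 

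**Figure D2:**
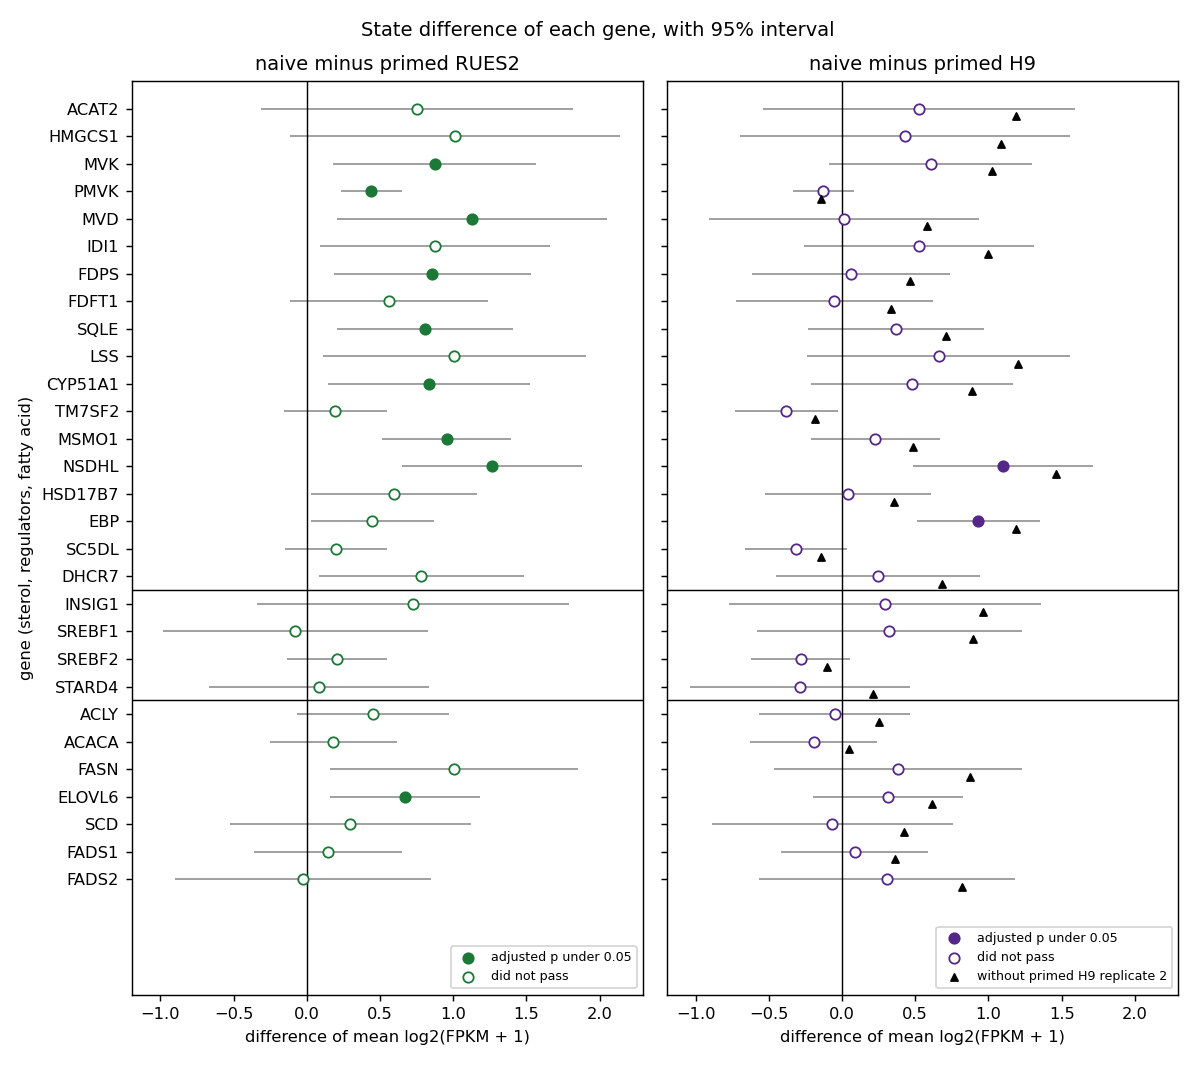
The horizontal axis is the difference of mean log2(FPKM + 1), naive minus primed, in RUES2 (left) and H9 (right); circles are the 29 genes with 95% intervals, filled where the adjusted p is under 0.05, and triangles are the H9 differences without primed H9 replicate 2. In RUES2 8 sterol genes and ELOVL6 are filled, in H9 NSDHL and EBP, and all triangles except that of PMVK lie to the right of their circles.

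**Figure D3:**
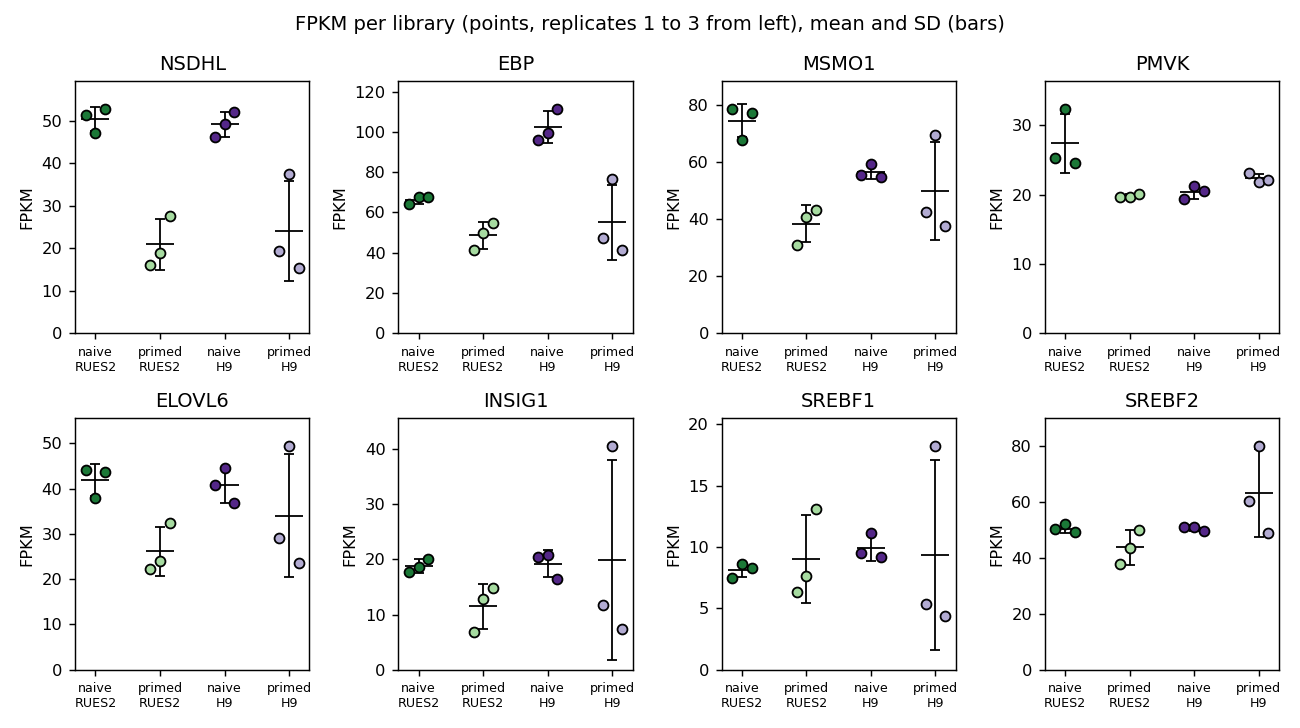
The vertical axis is FPKM and the points are the 3 libraries of each group, with the mean and SD as bars, for 8 genes. NSDHL separates the states in both lines, PMVK separates naive RUES2 from the rest, and INSIG1, SREBF1 and SREBF2 are highest in primed H9 replicate 2.

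None of the 4 regulator and transport genes passed in either line, and limma had 0 at an unadjusted p under 0.05 (median difference 0.14 in RUES2 and 0.0052 in H9). Of all genes tested, 23.1% passed as higher and 23.6% as lower in RUES2, and 20.4% and 23.9% in H9. With only 4 genes, a count of 0 does not show that they were unchanged. INSIG1, the sterol-dependent anchor of the SREBPs and itself a target of them (chromosome 7, 155089486 to 155101945 of hg19), measured 17.7, 18.6 and 20.1 FPKM in naive RUES2, against 6.88, 12.8 and 14.7 FPKM in primed RUES2. Its groups did not overlap, but the difference of 0.73 had a 95% interval of -0.34 to 1.79 (adjusted p = 0.240). In H9 it measured 20.4, 20.9 and 16.4 FPKM in naive cells, against 11.7, 40.6 and 7.36 FPKM in primed cells (0.29, 95% interval -0.77 to 1.36). Primed H9 replicate 2 had about 5.52 times the INSIG1 level of primed replicate 3, with the naive libraries between them. SREBF2, whose product chiefly drives sterol genes (chromosome 22, 42229106 to 42302375 of hg19), measured 50.2, 52.0 and 49.2 FPKM in naive RUES2, against 37.7, 43.7 and 50.2 FPKM in primed RUES2 (0.21, adjusted p = 0.293). In H9 it measured 51.2, 51.3 and 49.7 FPKM in naive cells, against 60.4, 80.2 and 49.1 FPKM in primed cells (-0.28, adjusted p = 0.156). The 6 naive values of SREBF2 stayed within 49.2 to 52.0 FPKM.

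SREBF1, whose product chiefly drives fatty acid genes (chromosome 17, 17714663 to 17740325 of hg19), measured 7.46, 8.63 and 8.29 FPKM in naive RUES2, against 6.37, 7.60 and 13.1 FPKM in primed RUES2 (-0.079, adjusted p = 0.891). In H9 it measured 9.48, 11.1 and 9.16 FPKM in naive cells, against 5.33, 18.2 and 4.41 FPKM in primed cells (0.32, adjusted p = 0.548). In both lines the naive values lay inside the range of the primed ones. STARD4, a carrier that moves cholesterol between membranes, measured 12.1 ± 1.85 FPKM in naive RUES2 and 11.5 ± 2.22 FPKM in primed RUES2, and 10.6 ± 0.711 FPKM in naive H9 and 15.1 ± 10.4 FPKM in primed H9 (SD, n = 3 each; adjusted p = 0.866 and 0.523). Without primed H9 replicate 2, INSIG1 (0.97, adjusted p = 0.0184) and SREBF1 (0.89, adjusted p = 0.0117) passed as higher in naive H9, and INSIG1 passed in RUES2 (adjusted p = 0.0350). In the fit lacking primed H9 replicate 3, SREBF2 passed as lower in naive H9.

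Of the 7 fatty acid genes, 1 rose in naive RUES2 and 0 fell, and in H9 0 passed in either direction, with limma's unadjusted p under 0.05 in 2 genes in RUES2 and 0 in H9. These counts stand beside 23.1% higher and 23.6% lower of all genes tested in RUES2 and 20.4% and 23.9% in H9, so they do not exceed the background. ELOVL6, which elongates palmitate (chromosome 4, 110970229 to 111119820 of hg19), measured 44.2, 37.9 and 43.7 FPKM in naive RUES2, against 22.2, 24.0 and 32.4 FPKM in primed RUES2. The groups did not overlap (0.67, SE 0.23, adjusted p = 0.0345). In H9 ELOVL6 measured 40.8, 44.7 and 36.8 FPKM in naive cells, against 29.0, 49.5 and 23.7 FPKM in primed cells (0.32, adjusted p = 0.292). Its call in RUES2 ended without any 1 naive RUES2 library or primed RUES2 replicate 1 or 2 (5 of the 12 fits, adjusted p up to 0.114). FASN, fatty acid synthase itself, measured 93.7, 131 and 97.2 FPKM in naive RUES2, against 41.6, 46.2 and 74.7 FPKM in primed RUES2. Here too every naive library lay above every primed one, and the difference of 1.00 just missed the threshold (adjusted p = 0.0517). In H9 FASN measured 87.2, 88.0 and 96.9 FPKM in naive cells, against 61.6, 138 and 38.8 FPKM in primed cells (0.38, adjusted p = 0.443).

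ACLY, which makes cytosolic acetyl-CoA from citrate, was the only other fatty acid gene without overlap in RUES2. Of all genes tested, 29% had all naive RUES2 libraries above all primed ones, beside ELOVL6, FASN and ACLY among these 7. ACLY measured 115, 142 and 111 FPKM in naive RUES2, against 75.1, 86.1 and 109 FPKM in primed RUES2 (0.45, adjusted p = 0.136). ACACA, the carboxylase that makes malonyl-CoA, measured 20.6 ± 1.47 FPKM in naive RUES2 and 18.3 ± 4.03 FPKM in primed RUES2 (0.18, adjusted p = 0.473), and 19.6 ± 0.936 FPKM in naive H9 and 23.3 ± 7.59 FPKM in primed H9 (-0.19, adjusted p = 0.447). The desaturase genes overlapped between the states in both lines. SCD, which introduces the double bond of oleate, measured 174, 170.0 and 182 FPKM in naive RUES2, against 104, 129.5 and 213 FPKM in primed RUES2, where replicate 3 lay above all naive libraries (0.30, 95% interval -0.52 to 1.12). FADS1 and FADS2, desaturases of polyunsaturated fatty acids, differed by 0.15 (95% interval -0.36 to 0.65) and -0.025 (-0.90 to 0.85) in RUES2, and by 0.086 (-0.42 to 0.59) and 0.31 (-0.57 to 1.18) in H9. The median difference over the 7 was 0.30 in RUES2 and 0.086 in H9. With primed H9 replicate 2 left out, FASN, ELOVL6 and FADS2 passed as higher in naive H9 (background 22.6%), and FASN, ELOVL6 and ACLY in RUES2 (background 24.7%). In a fit of the 6 RUES2 libraries alone, 2 of the 7 passed as higher, beside 21.4% of all genes tested.

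Between lines, PMVK was the 1 member whose state difference itself differed, 0.57 (log2) larger in RUES2 than in H9 (SE 0.13, adjusted p = 0.0340). Of all genes tested, 3.77% had a larger and 1.93% a smaller difference in RUES2, so 1 of 29 members is near the background. The PMVK call ended in 9 of the 12 fits that left out 1 library (adjusted p 0.0506 to 0.0951). It held without primed H9 replicate 2 or naive RUES2 replicate 2 or 3. The other 17 sterol genes had differences between lines of -0.48 (EBP, adjusted p = 0.339) to 1.11 (MVD, adjusted p = 0.313), and none of them passed; nor did any regulator, transport or fatty acid gene. Without primed H9 replicate 2, EBP passed as well, with a smaller state difference in RUES2 (-0.74, adjusted p = 0.0260; background 2.4% lower). For the other sterol genes, passing in RUES2 and not in H9 was thus not a difference past the threshold between lines. Between the naive groups, PMVK was higher in naive RUES2 than in naive H9 (0.40, adjusted p = 0.0165), 1 of 18 sterol genes beside 11.2% of genes tested higher and 4.69% lower. This call ended without naive H9 replicate 1 (adjusted p = 0.0728).

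EBP measured 64.0, 67.5 and 67.5 FPKM in naive RUES2, against 96.2, 99.6 and 111 FPKM in naive H9, with no overlap (all lower in 19.3% of genes tested), and just missed the threshold (-0.62, adjusted p = 0.0514). MVD measured 50.5, 58.0 and 57.3 FPKM in naive RUES2, against 25.3, 23.9 and 26.9 FPKM in naive H9 (1.09, adjusted p = 0.104). All naive RUES2 values of MVD lay above all those of naive H9, a pattern found in 26.9% of genes tested. The same held for PMVK, FDPS, FDFT1, SQLE, TM7SF2, MSMO1, SC5DL and DHCR7, of which only PMVK passed. The remaining sterol genes other than EBP overlapped. In a fit of the naive libraries alone, 7 sterol genes were higher and 1 lower in naive RUES2, beside 14.2% and 8.27% of genes tested. Between the primed groups 0 of 29 members passed, beside 1.34% of genes tested higher and 0.471% lower in primed RUES2; limma's unadjusted p was under 0.05 for 2, SC5DL and SREBF2. In that comparison the 28 members other than PMVK overlapped, and PMVK lay lower in all primed RUES2 libraries, as did 5.93% of genes tested (19.6, 19.7 and 20.1 FPKM in primed RUES2, against 23.1, 21.9 and 22.1 FPKM in primed H9; adjusted p = 0.477).

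Set side by side, the sterol genes stood higher relative to the fatty acid genes in naive than in primed libraries. The mean over genes of log2(FPKM + 1) was 5.71 ± 0.030 for sterol and 6.16 ± 0.065 for fatty acid genes in naive RUES2, against 4.95 ± 0.29 and 5.77 ± 0.36 in primed RUES2 (SD, n = 3 each). In naive H9 it was 5.49 ± 0.042 for sterol and 6.16 ± 0.087 for fatty acid genes, against 5.19 ± 0.70 and 6.05 ± 0.68 in primed H9. The sterol mean minus the fatty acid mean was -0.43, -0.52 and -0.42 in naive RUES2, against -0.78, -0.76 and -0.91 in primed RUES2. It was -0.69, -0.71 and -0.61 in naive H9, against -0.82, -0.84 and -0.90 in primed H9. All 6 naive libraries lay above all 6 primed ones in this difference, and primed H9 replicate 2 lay between the other primed H9 libraries. In H9, NSDHL (1.10) and EBP (0.93) had the largest state differences among the sterol genes behind this mean. The separation of the libraries was not examined without these genes, so it is not shown to hold for the rest of the list. No test was made of these lists, whose members are not replicates.

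**Figure D4:**
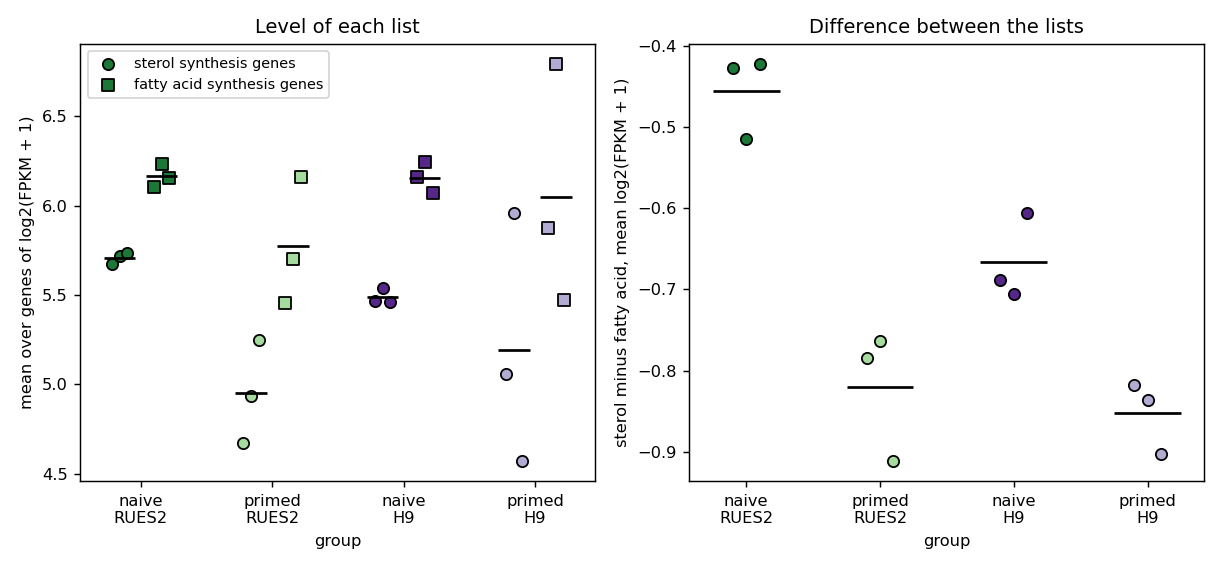
Left, the mean over genes of log2(FPKM + 1) for sterol genes (circles) and fatty acid genes (squares) in each library, with group means as lines; right, the sterol mean minus the fatty acid mean. The primed H9 libraries spread widely on the left, and on the right the naive libraries lie at -0.71 or above and the primed ones at -0.76 or below.

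The summed FPKM showed the same spread. The 18 sterol genes summed to 1207 to 1247 FPKM in naive RUES2, against 584 to 921 FPKM in primed RUES2, with no overlap. They summed to 1021 to 1090.2 FPKM in naive H9, against 533 to 1535 FPKM in primed H9, so that the naive range lay inside the primed one. The 7 fatty acid genes summed to 580.4 to 647 FPKM in naive RUES2, against 363 to 637 FPKM in primed RUES2. In H9 they summed to 569 to 639 FPKM in naive cells, against 357 to 1011 FPKM in primed cells. Among the members, the levels per length over all 12 libraries were highest for SCD (171 FPKM) and FDFT1 (168 FPKM), and lowest for MVK (9.12 FPKM) and SREBF1 (9.10 FPKM). SCD and FDFT1 overlapped in 3 of the 4 groups, and in naive RUES2 FDFT1 (188 to 204 FPKM) lay above SCD (170.0 to 182 FPKM).

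The members kept a common order among the libraries of 3 groups, with a wide spread in the primed groups. In primed H9, replicate 2 was the highest and replicate 3 the lowest library in 28 of 29 members, beside 30% of all genes tested with that order (2, 1, 3), and PMVK was the exception. The median ratio of the highest to the lowest primed H9 library was 2.66 for sterol genes, 3.75 for regulator and transport genes and 2.10 for fatty acid genes, beside 1.32 for all genes tested. ACAT2 spanned 34.0 to 199 FPKM in primed H9. PMVK spanned 21.9 to 23.1 FPKM, a ratio of 1.05. In primed RUES2, replicate 3 was the highest and replicate 1 the lowest in 26 of 29 members, beside 11.2% of all genes tested with the order 3, 2, 1, the exceptions being MVD, FDFT1 and TM7SF2, and the median ratio was 1.60, 1.75 and 1.51 for the 3 lists, beside 1.26. In naive H9 the order 2, 1, 3 was kept by 21 of 29 members, beside 16.5% of all genes tested, and in naive RUES2 the most frequent order (2, 3, 1) was kept by 9 of 29. In the naive groups the same median ratios were 1.13, 1.15 and 1.14 in naive RUES2 (all genes 1.22) and 1.12, 1.18 and 1.13 in naive H9 (all genes 1.15). The spread of the members was thus wider than that of all genes in the primed groups and no wider in the naive groups, apart from the regulators in naive H9.

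Relative depth was 0.671, 1.25 and 0.841 in primed H9 replicates 1 to 3 and 0.682, 1.08 and 1.09 in primed RUES2 replicates 1 to 3. In primed H9 the deepest library had the highest values in most members, and the shallowest library was not the lowest. Primed RUES2 replicates 2 and 3 were nearly equal in depth, with sterol sums of 678 and 921 FPKM. Sums of marker lists also differed between primed H9 replicate 2 and the other primed H9 libraries. Its pluripotency markers summed to 2272 FPKM, against 2650.1 and 2827 FPKM in primed H9 replicates 1 and 3. Its fibroblast and mesenchymal markers summed to 354 FPKM, against 612 and 788 FPKM in primed H9 replicates 1 and 3, but by the mean of log2(FPKM + 1) they lay between those 2 libraries (2.87, against 2.76 and 3.03). Its neural ectoderm markers summed to 178 FPKM, against 157 and 139.8 FPKM in primed H9 replicates 1 and 3. Its endoderm and hepatocyte markers summed to 34.4 FPKM, against 15.3 and 18.1 FPKM in primed H9 replicates 1 and 3. Its trophectoderm and amnion markers summed to 19.3 FPKM, against 7.13 and 8.39 FPKM in primed H9 replicates 1 and 3. By these sums it was the lowest of its group in the first 2 lists and the highest in the other 3. Primed RUES2 replicate 2 had similar sums of pluripotency (2215 FPKM) and fibroblast markers (359 FPKM), also the lowest of its group. It was the highest of its group in trophectoderm and amnion markers, but not in neural ectoderm or endoderm markers. The part of depth and of cell makeup in the member values was not tested. The authors' confidence bounds on a member's FPKM were within 0.899% to 19.2% of the value; they cover measuring error within a library, not the spread between libraries.

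Lists of neighbouring pathways are read here beside 23.1% higher and 23.6% lower of all genes tested in RUES2 and 20.4% and 23.9% in H9. Among other genes of sterol regulation, transport and storage, of 24 tested genes 6 rose and 10 fell in naive RUES2, and 3 rose and 11 fell in naive H9. SOAT1, which esterifies cholesterol for storage, measured 11.9 ± 0.816 FPKM in naive RUES2 and 2.68 ± 1.27 FPKM in primed RUES2, and 12.1 ± 1.22 FPKM in naive H9 and 1.94 ± 0.692 FPKM in primed H9 (SD, n = 3; differences 1.86 and 2.18, adjusted p = 0.000121 and 4.51e-05). VLDLR, a lipoprotein receptor, moved the other way, with 7.45 ± 1.71 FPKM in naive RUES2 and 17.0 ± 2.99 FPKM in primed RUES2, and 2.54 ± 0.229 FPKM in naive H9 and 15.2 ± 7.00 FPKM in primed H9 (-1.10 and -2.09, adjusted p = 0.0103 and 0.000278). ABCA1, a cholesterol exporter, also fell in both lines (-1.50 and -0.95), at low levels. It averaged 1.30 FPKM in naive and 5.62 FPKM in primed RUES2, and 0.722 FPKM in naive and 2.45 FPKM in primed H9. Its H9 call ended without primed H9 replicate 3 (adjusted p = 0.0718). Among other isoprenoid branch genes, of 15 tested genes 4 rose and 0 fell in naive RUES2, and 4 rose and 1 fell in naive H9. PDSS1, of ubiquinone side chain synthesis, rose by 1.10 in RUES2 and 0.72 in H9 (adjusted p = 0.000866 and 0.0100).

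The same background, 23.1% higher and 23.6% lower in RUES2 and 20.4% and 23.9% in H9, holds for the remaining lists. Among other fatty acid synthesis genes, of 24 tested genes 8 rose and 5 fell in naive RUES2, and 7 rose and 4 fell in naive H9. ELOVL2, an elongase of polyunsaturated fatty acids, measured 2.42 ± 0.219 FPKM in naive RUES2 and 0.462 ± 0.0626 FPKM in primed RUES2, and 0.663 ± 0.181 FPKM in naive H9 and 0.471 ± 0.227 FPKM in primed H9 (differences 1.22, adjusted p = 4.98e-05, and 0.18, adjusted p = 0.275). Its state difference itself differed between lines (adjusted p = 0.0110). ELOVL7 fell in both (-1.08 and -0.89), also at low levels. It averaged 0.456 FPKM in naive and 2.08 FPKM in primed RUES2, and 0.387 FPKM in naive and 1.59 FPKM in primed H9. Among glycerolipid synthesis genes, of 21 tested genes 4 rose and 6 fell in naive RUES2, and 2 rose and 7 fell in naive H9; CDS1, which makes CDP-diacylglycerol, fell by 0.85 in RUES2 and by 1.16 in H9 (log2; adjusted p = 9.32e-05 and 1.34e-05). Among fatty acid oxidation genes, of 27 tested genes 10 rose and 5 fell in naive RUES2, and 3 rose and 9 fell in naive H9. CPT1C, a brain-type member of the carnitine palmitoyltransferase family, measured 1.06 ± 0.00229 FPKM in naive RUES2 and 14.0 ± 1.20 FPKM in primed RUES2, and 1.70 ± 0.390 FPKM in naive H9 and 16.4 ± 4.10 FPKM in primed H9 (-2.86 and -2.68, adjusted p = 1.08e-06 and 1.47e-06). ACADVL, the first dehydrogenase for very long chains, also fell in both lines (-1.14 and -0.83), and ACAA1, a peroxisomal thiolase, rose in both (0.80 and 0.76).

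Marker lists of other cell types were set beside these results, and their counts stand beside 23.1% higher and 23.6% lower of all genes tested in RUES2 and 20.4% and 23.9% in H9. Among fibroblast and mesenchymal markers, of 17 tested genes 11 rose and 2 fell in naive RUES2, and 10 rose and 1 fell in naive H9, and the FPKM of the whole list summed to 423 to 1640.3 in naive RUES2 against 359 to 654 in primed RUES2, and to 681 to 993 in naive H9 against 354 to 788 in primed H9. In both primed groups DCN, POSTN and FAP stayed under 1 FPKM in all 3 libraries. Among neural ectoderm markers, of 5 tested genes 4 rose and 0 fell in naive RUES2, and 4 rose and 0 fell in naive H9, with sums of 323 to 367 against 102 to 178 FPKM in RUES2 and 300.0 to 319.6 against 139.8 to 178 FPKM in H9 (naive against primed); SOX1, NEUROG1 and NEUROD1 were under 1 FPKM in all 12 libraries. Among trophectoderm and amnion markers, of 7 tested genes 3 rose and 3 fell in naive RUES2, and 3 rose and 1 fell in naive H9, with sums of 22.6 to 63.1 against 31.6 to 40.6 FPKM in RUES2 and 30.2 to 97.8 against 7.13 to 19.3 FPKM in H9, and TP63, CGA and CGB under 1 FPKM throughout. Among endoderm and hepatocyte markers, of 9 tested genes 3 rose and 1 fell in naive RUES2, and 2 rose and 1 fell in naive H9; ALB and FOXA1 were under 1 FPKM in all libraries, and the sums were 90.6 to 213 against 91.8 to 163 FPKM in RUES2 and 23.3 to 39.7 against 15.3 to 34.4 FPKM in H9. Of the 7 adipocyte markers, FABP4, ADIPOQ, PLIN1, LEP and CIDEC stayed under 1 FPKM in all 12 libraries. Among pluripotency markers, of 11 tested genes 1 rose and 10 fell in naive RUES2, and 0 rose and 6 fell in naive H9. Marker RNA in bulk libraries does not show that cells of these other types were present. The part of any such cells in the sterol and fatty acid values was not tested.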

How the data were processed

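The authors deposited 1 table per library with an FPKM value and its confidence bounds for each gene, as named in the file headers, while the design text calls the values RPKM. The tools are TopHat2 2.1.1 and bcl2fastq 2.17.1.14 and the build hg19, per the submitters' processing notes. Strandedness, annotation and the program behind the FPKM values are not given in the sources. A symbol listed at several loci kept the locus with the highest mean. Differences were tested on log2(FPKM + 1) with limma 3.58.1 (R 4.3.3, variance trend, 1 mean per group, 12 libraries) for 14428 genes of at least 1 FPKM in at least 3 libraries; tests were checked on simulated data. Tables and figures were made with Python 3.11.15. Every member is accounted for, with values per library for those that passed and for INSIG1, SREBF1 and SREBF2; of other lists, up to 4 genes that passed with the largest mean state differences. The members and lists were chosen with earlier results of these data known. The alternatives were another pseudocount, other filters, 2 rescalings, a replicate block, only the groups compared, summed loci, no variance trend and leaving out each library.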

Additional observations from a re-analysis of the deposited data

Results flagged for a closer look

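PMVK is given here because its state difference differed between the lines by a test of the difference itself: naive minus primed was 0.57 (log2) larger in RUES2 than in H9 (SE 0.13, 95% interval 0.28 to 0.86, limma adjusted p = 0.0340). The state difference was 0.44 in RUES2, where all 3 naive libraries lay above all 3 primed ones, and -0.13 in H9, where all 3 naive libraries lay below. Among the 12 fits that left out 1 library the adjusted p ran from 0.0266 to 0.0951 and was under 0.05 in 3. Of all genes tested, 3.77% passed with a larger difference in RUES2, so 1 of 29 members is near the background. The RUES2 side contains the libraries that did not match their line label, and their part in this difference was not tested.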

How the results depend on the processing

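In H9, 2 sterol genes rose under each of the 9 alternatives that kept all libraries, and 1 fell with median ratio scaling, upper quartile scaling or the replicate block, against 0 otherwise. In RUES2, 4 sterol genes rose with no filter and 15 with only the groups compared, and 2 fatty acid genes rose with upper quartile scaling or only the groups compared. Between naive lines, only the groups compared gave 7 sterol genes higher, 1 lower and 1 fatty acid gene lower, and either rescaling gave 1 sterol gene lower. A filter of 5 FPKM gave 2206 of all genes lower in H9 (against 3448), 2229 in RUES2 (against 3412), and 262 larger and 162 smaller in RUES2 for the difference between lines (against 544 and 279), with fewer genes tested. MVD in H9 was -0.024 with upper quartile scaling. Leaving out 1 library, calls ranged in H9 over 2 to 11 higher and 0 to 2 lower sterol genes, 0 to 2 higher and 0 to 1 lower regulators and 0 to 3 higher fatty acid genes; in RUES2 over 3 to 16 higher sterol genes, 0 to 1 regulators and 0 to 3 fatty acid genes; for the difference over 0 to 1 larger and 0 to 1 smaller sterol genes, with 241 to 517 larger and 128 to 344 smaller of all genes; between naive lines over 0 to 3 higher and 0 to 1 lower sterol genes; and between primed lines over 0 to 1 lower regulators. The sign also turned when 1 library was left out, in H9 for ACAT2 (-0.066 to 1.19), HMGCS1 (-0.18 to 1.09), MVD (-0.36 to 0.58), FDPS (-0.24 to 0.47), FDFT1 (-0.36 to 0.33), HSD17B7 (-0.18 to 0.36), DHCR7 (-0.10 to 0.68), INSIG1 (-0.19 to 0.97), SREBF1 (-0.021 to 0.89), STARD4 (-0.61 to 0.21), ACLY (-0.28 to 0.25), ACACA (-0.34 to 0.049), FASN (-0.028 to 0.87), SCD (-0.41 to 0.42), FADS1 (-0.14 to 0.36) and FADS2 (-0.13 to 0.82), and in RUES2 for SREBF1 (-0.27 to 0.19), STARD4 (-0.028 to 0.22) and FADS2 (-0.26 to 0.21). The cause was not tested. With the replicate number as a replicate block, 7 sterol genes and 1 fatty acid gene rose in RUES2 and 2 rose and 1 fell in H9. Libraries of the same number hardly deviated together (correlations -0.054 to 0.082, 0 of 6 over 0.1). In 3 of the 6 pairs, all in RUES2, the correlation was best with the library of the same number. Weak correlations over so few libraries cannot decide whether the numbers pair the samples. Depth is known only through the authors' bounds.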
